A study of Mus musculus with 23 samples.

Results

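The amyloid response was examined in microglia with a knockdown of *Slc11a2*, the gene of the divalent metal transporter DMT1, by comparing 5 libraries of *Slc11a2*KD *APP/PS1* mice (0004, 0018, 0020, 0021 and 0023) with 5 libraries of *Slc11a2*KD WT littermates (0001, 0002, 0003, 0019 and 0022). These 10 libraries were all the *Slc11a2*KD libraries among 23 in the series and were taken by their labels. Every mouse was female, carried a floxed *Slc11a2* on both alleles and 1 copy of the Cx3cr1-CreERT2 driver on a mixed 129S and C57BL/6J background, and received tamoxifen (4 mg per day for 5 days by gavage) at 5 to 6 months of age. *APP/PS1* mice were hemizygous for the *APP/PS1* transgenes, which lead to amyloid plaques, and WT mice carried none. RNA was taken from CD11b+ cells that had been isolated magnetically from both hippocampi at 15 to 18 months. The remaining 13 libraries came from Control mice of the same alleles that received corn oil. Of these, 12 (6 *APP/PS1*, 6 WT) share in the estimate of the spread in the main fit and serve as a second genotype comparison. Control libraries were numbered 5 to 17, outside the knockdown numbers of 1 to 4 and 18 to 23. The effects of knockdown, tamoxifen and library number therefore cannot be told apart between knockdown and Control. Cx3cr1 drives recombination in border macrophages and some blood-derived myeloid cells as well as in microglia, and the CD11b gate holds all of these.

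Microglia are the resident macrophages of the brain. In the healthy brain they keep a homeostatic programme of purinergic receptors, TGF-beta signalling and surface proteins. Beside amyloid plaques they take on the disease-associated microglia (DAM) programme, which is described in stages, a first one independent of the receptor Trem2 and a second one that requires it, with genes of lipid handling, lysosomes and phagocytosis. DMT1 carries ferrous iron into the cytosol, and the comparison asks which of these programmes differ between amyloid-bearing and amyloid-free animals when *Slc11a2* was knocked down in both.

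In *Slc11a2*KD microglia, *APP/PS1* libraries held more RNA of the DAM stage 2 and plaque-associated genes, led by *Gpnmb*, *Mamdc2*, *Fabp5* and *Cst7*, which rose 5.38 to 8.75 on the log2 scale. Glycolysis, cholesterol synthesis, lysosomal and MHC class I genes rose in part, and the iron stores *Ftl1* and *Fth1* rose while the exporter *Slc40a1* fell. The homeostatic genes *P2ry12* and *Tmem119* fell by 1.03 and 0.92. Respiratory chain and ribosomal protein genes passed in larger numbers in the main fit than with the run of library numbers (18 to 23 or not) fitted, or with the 10 knockdown libraries alone. *Apoe* did not pass the test.

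The 10 libraries held between 33418857 and 52188165 counts on genes (median 40521765), and Pearson correlations of log2 CPM (counts scaled to the size of the library) between any pair ran from 0.889 to 0.963. Library numbers fell in runs, 1 to 4 and 18 to 23, and each run held both genotypes, with 0004 the single *APP/PS1* library of the first run and 0019 and 0022 the WT libraries of the second. What the runs were (a collection, extraction or sequencing day) is not given in the labels, so the run was fitted as a covariate, in the same 22 libraries as the main fit, without being taken for a known batch. Every library held the microglial markers. Over 9 of them the sum was 32063 to 36232 CPM in *APP/PS1* and 37691 to 42809.7 CPM in WT, with 1 higher (*Trem2*) and 5 lower (3 without 0020, 0021, 0023, 0001, 0002 or 0003 for the lower, 2 without 0022 for the higher). The study describes the replicates of each group as mice, and the p-values measure the spread between these libraries.

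Over the 500 most variable genes, the first principal component (PC1) held 59.3% of the variance and separated the genotypes. PC1 scores of the *APP/PS1* libraries were 3.68 in 0004 and 16.5 to 25.3 in the other 4. WT libraries 0001, 0002 and 0003 scored between -25.2 and -22.4, while 0019 and 0022 scored -9.36 and -7.39. The mean difference was 35.2 (exact permutation test, two-sided, p = 0.00794, the smallest that splits of 5 against 5 allow). PC2 held 16.6% and differed by run (exact permutation p = 0.0429) but was not shown to differ by genotype (exact permutation p = 0.278). *Gpnmb*, *Dcstamp*, *Mamdc2*, *Fabp5*, *Cst7*, *Actr3b*, *Spp1* and *Fabp3* had the 8 largest positive weights on PC1, and *Gpr165*, *Ccr6* and *Adcy8* were among the 8 genes with the largest negative ones.

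**Figure D1:**
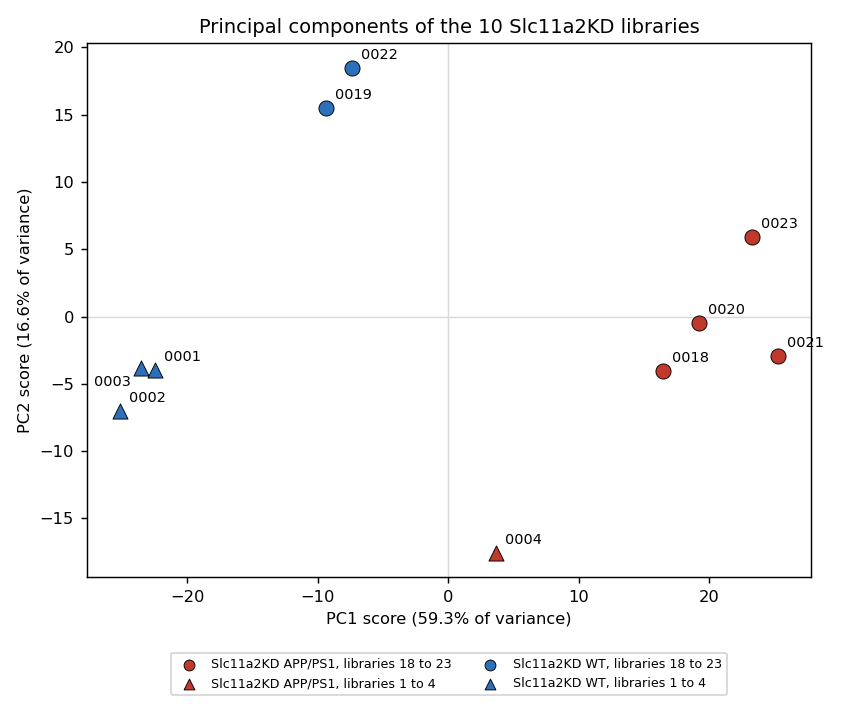
PC1 and PC2 scores of the 10 *Slc11a2*KD libraries over the 500 most variable genes, with genotype as colour and library run as symbol (each point is 1 library). All 5 *APP/PS1* libraries score above 0 on PC1 and all 5 WT libraries below 0, with 0004 lowest on both axes among the *APP/PS1* libraries and WT 0019 and 0022 highest on PC2.

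The labels were first checked on the genes they concern. *Slc11a2* (chr15:100285776-100322953, minus strand of GRCm39) was at 37.8, 52.1, 59.2, 75.1 and 58.2 CPM in *APP/PS1* 0004, 0018, 0020, 0021 and 0023 and at 37.5, 31.6, 27.1, 36.9 and 38.1 CPM in WT 0001, 0002, 0003, 0019 and 0022. Here and below, values by library are given in these orders. The *APP/PS1* value of 0004 lay within the WT range and the other 4 lay above it. The gene total was higher in *APP/PS1*, with a log2 fold change of 0.72 (SE 0.15, adjusted p = 0.00209), 0.54 (adjusted p = 0.0173) with the run as a covariate, and an adjusted p of 0.0358 in the 10 knockdown libraries alone and 0.0605 with both changes. Both groups are knockdown groups, and the count of a gene joins its deleted exons 6 to 8 with all the others, so this total reports neither the depth of the knockdown nor the intact message. *Prnp*, the prion protein gene whose promoter drives transgenes of this type, was at 15.8, 18.9, 16.9, 19.6 and 18.5 CPM in *APP/PS1* and 2.67, 7.22, 7.97, 7.59 and 9.23 CPM in WT, which did not overlap, with a log2 fold change of 1.37 (SE 0.35, adjusted p = 0.00853). *Prnp* shares exons with the annotated readthrough gene Prn. *App* was at 147 ± 69.0 CPM in *APP/PS1* against 210.3 ± 59.2 CPM in WT (SD, n = 5 each) and did not pass the test (adjusted p = 0.141). It passed as lower without 0004 and without 0022.

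Of 18759 genes tested, 1832 were higher (9.77%) and 1202 lower (6.41%) in *Slc11a2*KD *APP/PS1* than in *Slc11a2*KD WT at an adjusted p-value under 0.05 (edgeR quasi-likelihood test, Benjamini-Hochberg adjustment over all genes tested). For 784 genes (4.18%) every *APP/PS1* library was above every WT library, and for 540 (2.88%) every one was below. With the run as a covariate, called the covariate below, 1121 genes were higher (5.98%) and 652 lower (3.48%). With the 10 knockdown libraries alone and no covariate, 738 of 17060 genes were higher (4.33%) and 303 lower (1.78%), and with both changes 776 (4.55%) and 344 (2.02%). Shares of a gene list are to be read against these shares of all genes. The counts moved with single libraries. Without 0004 they rose to 2429 higher and 2352 lower, and without WT 0022 to 2475 and 1960. The lower count fell to 728 without 0002, 748 without 0021, 756 without 0003, 758 without 0020 and 770 without 0023.

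The runs were also read against each other. Within libraries 18 to 23 alone (4 *APP/PS1*, 2 WT), 263 genes were higher (1.68%) and 64 lower (0.41%) of 15611 tested. In the run these calls did not use, 0004 lay above all of 0001, 0002 and 0003 for 255 of the 263 higher genes (97.0%, against 32.3% of all genes tested there), and below all 3 for 62 of the 64 lower genes (96.9%, against 25.0%). The median difference in that run was 1.72 on the log2 scale for the higher genes, beside 2.06 in libraries 18 to 23.

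The largest increases were in genes that were silent or nearly silent in WT cells. *Wif1*, a secreted inhibitor of WNT ligands, *Yipf7*, a Golgi membrane protein of the YIP family, and *Asb11*, a substrate receptor of a ubiquitin ligase, had 0 counts in all 5 WT libraries. *Wif1* was at 0.730, 23.6, 8.69, 6.18 and 12.8 CPM in *APP/PS1*. Set against a limit of 3 counts in each WT library (0.0733 CPM), its mean was at least 142-fold higher. The bound was 133-fold for *Yipf7* (1.09, 8.58, 10.0, 21.1 and 8.04 CPM) and 61.2-fold for *Asb11* (1.34, 3.99, 6.19, 5.82 and 5.08 CPM). Library 0004 held the lowest value of all 3 genes. Adjusted p-values were 0.000260, 4.56e-05 and 7.37e-05. *Trpm1*, a cation channel known from melanocytes and retina, was at 15.2 to 22.9 CPM in *APP/PS1* and had counts in a single WT library (0019, 0.0976 CPM). *Mamdc2* (chr19:23279973-23425886), which encodes a secreted MAM domain protein, was at 88.3, 187, 169, 169 and 163 CPM in *APP/PS1* and at 0, 0, 0.420, 0.951 and 0.428 CPM in WT, a log2 fold change of 8.75 (SE 0.77, adjusted p = 6.08e-08). *Gpnmb* (chr6:49013426-49047863), a lysosomal and surface glycoprotein of lipid-laden macrophages, was at 65.8, 335, 204, 241 and 152 CPM and at 0, 0, 0, 3.83 and 0.975 CPM, a log2 fold change of 7.69 (SE 1.36, adjusted p = 0.000427). All WT counts of *Gpnmb* came from 0019 and 0022, and its log2 fold change was 9.64 (adjusted p = 0.000199) without 0019, where that of *Mamdc2* was 9.52 (adjusted p = 1.63e-07). *Tmem163*, a zinc transporter, and *Atp6v0d2*, a subunit of the vacuolar proton pump, completed the 8 largest increases with log2 fold changes of 7.61 (SE 1.01, adjusted p = 1.51e-05) and 7.51 (SE 1.17, adjusted p = 0.000105), which were 8.95 (adjusted p = 1.69e-05) without 0019 for the first and 8.51 (adjusted p = 0.000231) without 0003 for the second. All 8 genes passed in each of the 19 alternative fits that could test them, of which 1, the 10 libraries with the run fitted, had served to choose them.

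Sequence upstream of 3 of the induced genes is shown because several of these genes (*Gpnmb*, *Trpm1*, *Atp6v0d2*) are known targets of the MiT/TFE family of basic helix-loop-helix factors, which bind the E-box CACGTG and the M-box TCATGTG. Windows from 250 bases before to 50 bases after RefSeq starts (GRCm38.p6) were searched for both words, and for the AP-1 word TGAGTCA and the PU.1 word GAGGAAGT, on both strands (12165 of the 18759 genes tested had a window), and 7.15% of all 32851 windows held the E-box, 3.77% the M-box, 5.20% the AP-1 word and 3.20% the PU.1 word. In the windows of the genes named for their size or p, the plaque-associated and DAM stage 2 genes and *Gla*, *Ctsz*, *Gusb*, *Cd63*, *Tmem119* and *P2ry12* (44 of 61 genes, 50 windows), 8 windows held the E-box, 3 the M-box, 3 the AP-1 word and 3 the PU.1 word. Beside the matches shown, E-boxes lay before the starts of *Wif1*, *Ctsl*, *Hif1a* and the lower gene *Snn*, the AP-1 word before those of *Cd68* and *Itgax* and the PU.1 word before those of *Gla* and *Spp1*, while the *Gpnmb* window held none of the 4 words before its start and *Atp6v0d2* had no window. None of the matches shown overlap each other. Capitals mark the matches, and each stretch is written 5′ to 3′ on the strand of the gene. *Gla*, the lysosomal alpha-galactosidase, held 2 E-boxes and 1 M-box in 63 bases (chrX:134601182-134601244, minus strand). The *Trpm1* stretches lie at chr7:64185218-64185247 and chr7:64153681-64153711 (plus strand, upstream of different annotated starts), and the *Gpr65* stretch at chr12:98268486-98268516 (plus strand). *P2ry12*, which fell, is shown because its window held an E-box too (chr3:59263196-59263225, minus strand).
Gla: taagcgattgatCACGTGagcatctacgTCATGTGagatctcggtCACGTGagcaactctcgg
Trpm1, E-box: agtaattggaagCACGTGgctcctcttcct
Trpm1, M-box: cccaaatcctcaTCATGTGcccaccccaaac
Gpr65, M-box: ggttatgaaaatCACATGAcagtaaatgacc
P2ry12, E-box: cccatgggttcaCACGTGatgacatcgcag
A match is a string in a window, and binding was not measured. *Gla* rose from 7.76, 7.29, 6.22, 7.78 and 6.32 CPM in WT to 30.1, 40.3, 47.3, 39.5 and 47.4 CPM in *APP/PS1* without overlap, a log2 fold change of 2.53 (SE 0.19, adjusted p = 9.99e-09). Its exons overlap those of Hnrnph2 and Rpl36a on the opposite strand, and the strand setting of the counting is not given in the sources used here. *Gpr65*, a proton-sensing receptor, rose by 2.03 (SE 0.23, adjusted p = 1.64e-06) on the log2 scale. Of the MiT/TFE genes, *Mitf* (-0.10, adjusted p = 0.812), *Tfeb* (-0.00, adjusted p = 0.999) and *Tfec* (-0.79, adjusted p = 0.508) did not pass, and *Tfe3* fell by 0.59 (adjusted p = 0.00404, 0.0210 with the run as a covariate and 0.0764 in the 10 libraries alone).

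Of the DAM stage 2 genes, 10 of 12 rose and 0 fell (background 9.77% higher), with a median log2 fold change of 2.62 against -0.07 over all genes tested, and 10 rose with the run as a covariate. *Cst7*, an inhibitor of lysosomal cysteine proteases, was at 365, 336, 315, 350.0 and 268 CPM in *APP/PS1* and at 9.71, 3.85, 5.27, 12.6 and 7.75 CPM in WT, a log2 fold change of 5.38 (SE 0.61, adjusted p = 1.74e-06). *Clec7a* (chr6:129438554-129449742), the beta-glucan receptor dectin-1, was at 516, 523, 568, 374 and 417 CPM and at 35.4, 24.0, 38.9, 63.8 and 38.8 CPM, a log2 fold change of 3.58 (SE 0.35, adjusted p = 2.67e-07). *Trem2* (chr17:48653429-48661175), the lipid-sensing receptor, changed less, from 1481, 1191, 1224, 1329 and 1460.0 CPM in WT to 2156, 2262, 2540.1, 2798 and 2130.5 CPM in *APP/PS1* (log2 fold change 0.83, SE 0.11, adjusted p = 2.22e-05), and still without overlap. *Lpl*, the lipoprotein lipase, rose by 3.89 (SE 0.59, adjusted p = 7.30e-05), *Itgax*, the integrin CD11c, by 3.39 (SE 0.47, adjusted p = 2.74e-05), and *Axl*, a receptor for phosphatidylserine bridging proteins, by 2.84 (SE 0.35, adjusted p = 4.92e-06). *Csf1* rose by 2.75 (SE 0.41, adjusted p = 5.57e-05), *Ccl6* by 2.15 (SE 0.31, adjusted p = 3.57e-05), *Cd9* by 1.67 (SE 0.18, adjusted p = 1.05e-06) and *Ctsl* by 1.36 (SE 0.15, adjusted p = 8.92e-07). *Timp2* (-0.12, adjusted p = 0.633) and *Lilrb4a* (2.48, adjusted p = 0.131) did not pass, and *Lilrb4a*, at 0.954 ± 0.452 against 0.169 ± 0.156 CPM, has a near-identical neighbour with which its reads can be confused.

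The DAM stage 1 genes were split. *Ctsb*, *Fth1*, *Tyrobp* and *Ctsd* rose (4 of 7), with log2 fold changes of 0.82 (SE 0.18, adjusted p = 0.00332), 0.73 (SE 0.18, adjusted p = 0.00710), 0.56 (SE 0.15, adjusted p = 0.00999) and 0.48 (SE 0.14, adjusted p = 0.0228). *Tyrobp*, the adaptor of Trem2, passed with the covariate (0.37, adjusted p = 0.0338) and not in the 10 libraries alone (adjusted p = 0.0963), where *Ctsd*, which also lost its call without 0018 or 0019, did not pass either and 2 of the 7 genes rose. None passed within libraries 18 to 23, and *Ctsb* exons overlap those of Fdft1 on the opposite strand. *Apoe*, the main lipid carrier of the brain, was at 893, 741, 609, 552 and 547 CPM in *APP/PS1* and 773, 743, 834, 607 and 345 CPM in WT, and the ranges overlapped with a log2 fold change of 0.02 (SE 0.30, adjusted p = 0.982). In both genotypes the *Apoe* values of the first run exceeded all those of the second run. *B2m* (0.19, adjusted p = 0.216) and *Lyz2* (-0.22, adjusted p = 0.606) did not pass either.

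**Figure D2:**
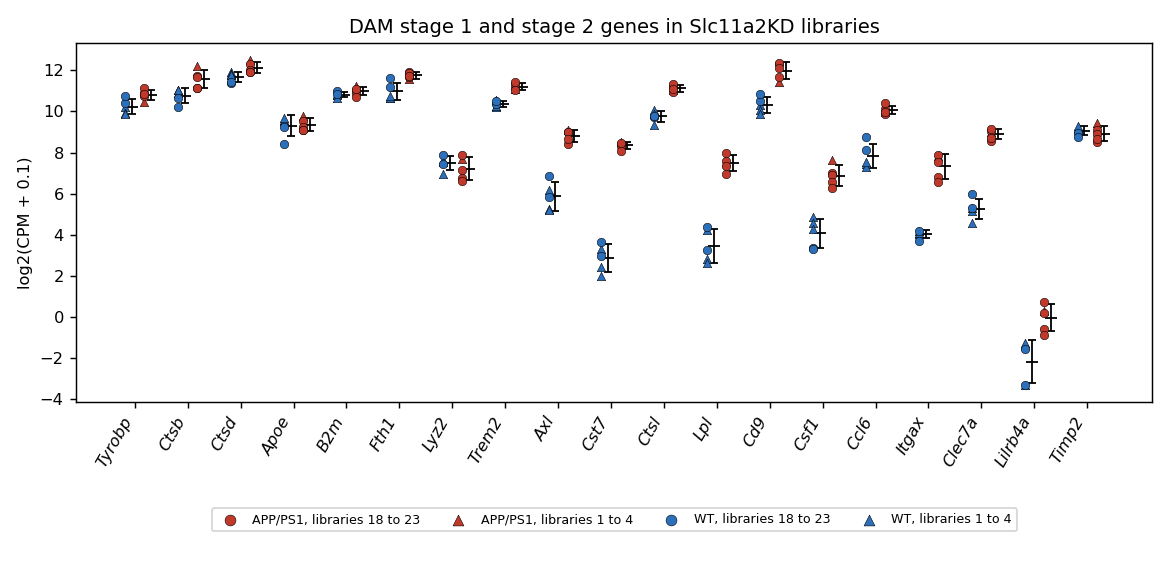
CPM of 7 DAM stage 1 and 12 DAM stage 2 genes in each *Slc11a2*KD library, on a log2(CPM + 0.1) axis, with WT at left and *APP/PS1* at right of each gene (symbols, library run; bars, mean ± SD of the log2 values, n = 5). Of the stage 2 genes, 11 of 12 show no overlap between genotypes, and of the stage 1 genes 1 of 7, beside 4.18% of all genes that did not overlap as higher.

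Genes described around plaques rose in 22 of 25 and fell in 0, with a median log2 fold change of 2.998, 22 rising with the run as a covariate and 21 within libraries 18 to 23. Their median was 2.38 with the covariate and 2.51 within libraries 18 to 23, beside 2.75 and 2.59 for the DAM stage 2 genes. *Ank* (chr15:27466558-27598709), a membrane transporter of pyrophosphate and ATP, had the smallest p-value of all genes. It was at 985, 999, 908, 851 and 884 CPM in *APP/PS1* and 98.9, 70.9, 69.5, 121 and 108 CPM in WT, with a log2 fold change of 3.30 (SE 0.22, adjusted p = 2.45e-09), and 0004 was as high as the other *APP/PS1* libraries. *Igf1*, the growth factor, was at 106, 224, 281, 276 and 236 CPM in *APP/PS1* and 10.5, 11.8, 11.8, 17.9 and 9.75 CPM in WT (log2 fold change 4.19, SE 0.33, adjusted p = 1.49e-08). *Psat1*, an enzyme of serine synthesis, *Adss1*, of adenylate synthesis, and *Milr1*, an inhibitory receptor, followed *Ank* and *Gla* among the 5 smallest p-values of the higher genes, with log2 fold changes of 3.21 (SE 0.25, adjusted p = 1.49e-08), 2.31 (SE 0.17, adjusted p = 9.99e-09) and 2.35 (SE 0.18, adjusted p = 1.10e-08). All 5 passed in all 20 alternative fits.

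The homeostatic programme was lower. 20 of 29 genes fell and 0 rose (background 6.41% lower), with a median log2 fold change of -0.74. With the run as a covariate 15 fell (median -0.52), 11 in the 10 libraries alone, 5 within libraries 18 to 23, and 12 without 0020. *P2ry12* (chr3:59123682-59170429), the ADP receptor that guides microglial processes, was at 3009, 2724, 2796, 2082 and 2861 CPM in *APP/PS1* and 5432, 5909, 5105, 5616 and 5388 CPM in WT, a log2 fold change of -1.03 (SE 0.12, adjusted p = 2.41e-06). *Tmem119* (chr5:113931781-113938577), a microglia-specific membrane protein, was at 2757, 2308, 2393, 2119 and 2423 CPM and 4209, 4211, 4663, 4624 and 4947 CPM, a log2 fold change of -0.92 (SE 0.11, adjusted p = 4.42e-06). Neither gene overlapped between the groups, and P2ry12 exons overlap those of Med12l on the opposite strand. *Cst3*, the cystatin C gene, fell by 1.06 (adjusted p = 2.76e-06), *Ecscr* by 1.31 (adjusted p = 1.93e-06) and *Snn*, outside the list, by 0.90 (adjusted p = 2.31e-06), and these are, with *P2ry12* and *Slc40a1*, the 5 smallest p-values of lower genes. *Csf1r* (-0.66, adjusted p = 0.0483) and *Sall1* (-0.96, adjusted p = 0.0353) passed in the main fit and not with the covariate (-0.40, adjusted p = 0.195, and -0.65, adjusted p = 0.133). *Csf1r* also lost its call without 0018, 0020, 0021, 0023, 0001, 0002, 0003 or 0019, and *Sall1* without 0020, 0021, 0023, 0001, 0002 or 0003. *Cx3cr1* (-0.64, adjusted p = 0.00211) passed with the covariate (adjusted p = 0.00695) and not in the 10 libraries alone (adjusted p = 0.0551). In a bulk library, fewer cells of a kind and less RNA per cell cannot be told apart.

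**Figure D3:**
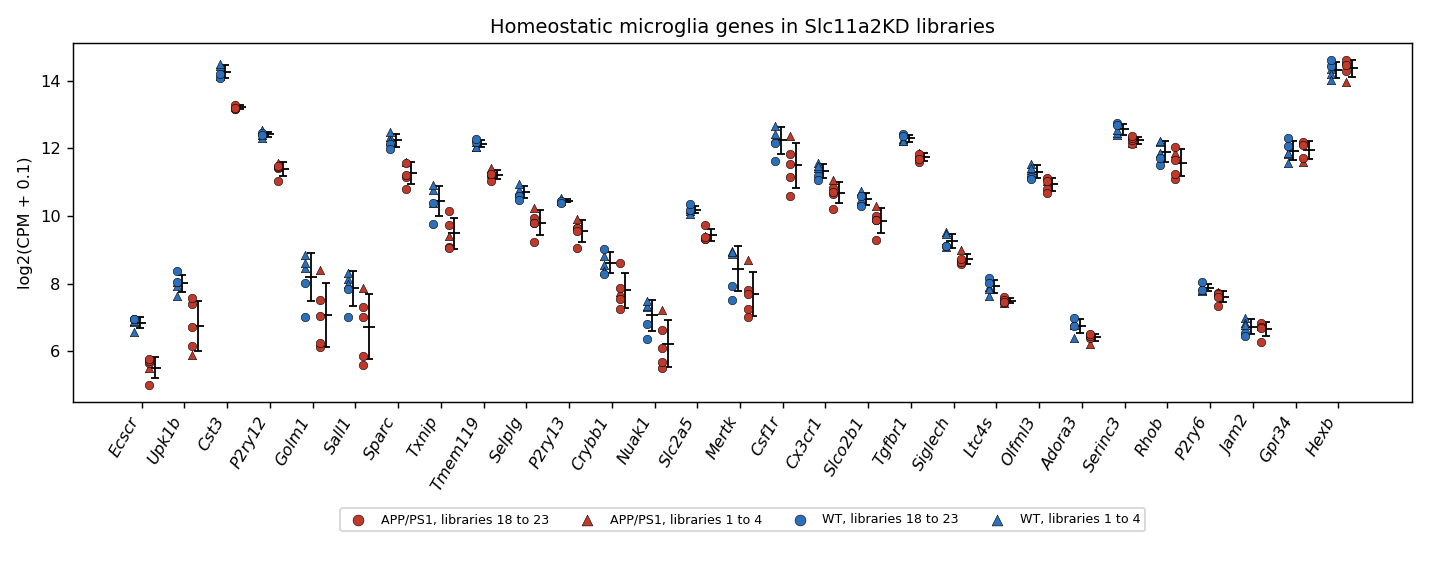
CPM of 29 homeostatic microglia genes in each *Slc11a2*KD library on a log2(CPM + 0.1) axis, ordered by log2 fold change, with WT at left and *APP/PS1* at right of each gene (symbols, library run; bars, mean ± SD of the log2 values, n = 5). For 15 genes, among them *Tmem119*, *P2ry12* and *Cst3*, no *APP/PS1* library reaches the lowest WT library, which holds for 2.88% of all genes.

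The largest decreases among genes that also passed in the 10 libraries with the run fitted were outside that list. *Bcat1*, which transfers amino groups from branched-chain amino acids, was at 0.209, 0.375, 0.409, 0.410 and 0.514 CPM in *APP/PS1* and 3.50, 3.44, 4.35, 2.17 and 2.71 CPM in WT (log2 fold change -3.07, SE 0.43, adjusted p = 2.78e-05). *Adcy8*, a calcium-stimulated adenylyl cyclase, was at 2.34, 4.68, 1.77, 1.23 and 1.57 CPM and 29.6, 24.6, 23.1, 10.1 and 8.63 CPM (log2 fold change -3.04, SE 0.41, adjusted p = 2.11e-05), and its WT values were 23.1 CPM or more in the first run and 10.1 CPM or less in the second. *Ptger3*, a receptor for prostaglandin E2, was at 1.92, 1.40, 2.26, 2.26 and 5.17 CPM and 18.2, 20.7, 15.6, 11.9 and 13.5 CPM (log2 fold change -2.62, SE 0.40, adjusted p = 7.29e-05). *Gpr165*, an orphan receptor, was at 14.3, 17.8, 16.2, 13.1 and 15.7 CPM and 86.4, 128, 97.9, 66.5 and 58.9 CPM (log2 fold change -2.51, SE 0.38, adjusted p = 6.97e-05), and it was the single gene of the 8 that passed in all 20 alternative fits, the fit that served to choose them included. *Efnb2* fell by 2.64, *Cdc42ep1* by 2.51, *Gpr37* by 2.33 and *Klhl4* by 2.29, with adjusted p-values from 0.000194 to 0.0114. The *Efnb2* values of WT split by run, at 15.7, 18.5, 16.9, 2.85 and 4.42 CPM, and its change was -1.64 (adjusted p = 0.00400) with the covariate and -1.17 (adjusted p = 0.418) within libraries 18 to 23. With the covariate in 22 libraries *Gpr37* did not pass (-2.19, adjusted p = 0.0503), and none of these 4 genes passed within libraries 18 to 23.

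Among 33 transcription factors of microglial identity and state, 4 rose and 6 fell, where 9.77% and 6.41% of all genes did, and 4 and 3 did so with the run as a covariate. The lower count was 3 without 0023 or 0002. *Hif1a*, the hypoxia-inducible factor, was at 421, 396, 389.6, 313 and 361 CPM in *APP/PS1* and 127, 111, 122, 94.9 and 90.9 CPM in WT, a log2 fold change of 1.78 (SE 0.14, adjusted p = 1.88e-08). *Bhlhe40*, a repressor linked to lipid handling in macrophages, rose by 2.79 (SE 0.38, adjusted p = 2.06e-05), and *Maf*, a factor of the homeostatic state, fell by 1.24 (adjusted p = 8.93e-06). All 3 also passed with the covariate. The list of Trem2 and its signalling chain, which holds *Trem2* itself, gave 3 higher and 5 lower genes of 16, and 8 without 0004 or 0022 for the lower. With the covariate the counts were 3 and 3, and 0 and 0 within libraries 18 to 23. *Lat2*, an adaptor, rose by 0.84 (SE 0.16, adjusted p = 0.000751), while *Sh2b3* fell by 0.81 and *Syk*, the kinase, by 1.07 (adjusted p = 0.00386 and 0.0127), and with the covariate *Sh2b3* passed (adjusted p = 0.00930) and *Syk* did not (-0.57, adjusted p = 0.0501). In the 10 libraries alone neither passed (adjusted p = 0.0722 and 0.125). Of 25 genes near Alzheimer's disease risk variants, *Trem2* rose and 8 fell, 7 of them with the covariate and 13 without 0004. *Cass4*, a docking protein, fell by 1.92 (adjusted p = 0.000577) and *Cd33*, an inhibitory Siglec, by 0.64 (adjusted p = 0.00115).

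Genes of the lysosome gave 20 of 36 higher and 3 lower (5 without 0004), and 20 and 2 with the run as a covariate, with medians of 0.50 and 0.44. Within libraries 18 to 23 7 were higher and 1 lower. *Cd63*, a tetraspanin of late endosomes, was at 1477, 2292, 3018, 3638 and 2617 CPM in *APP/PS1* and 399, 323, 352, 513 and 567 CPM in WT, a log2 fold change of 2.60 (SE 0.22, adjusted p = 2.84e-08). The beta-glucuronidase gene *Gusb* rose by 1.26 (SE 0.12, adjusted p = 2.14e-07) and the cathepsin gene *Ctsz* by 1.15 (SE 0.11, adjusted p = 2.54e-07). *Cst3*, *Ctss* and *Scarb2* fell, and *Ctss*, the gene of cathepsin S, changed by -0.90 (SE 0.20, adjusted p = 0.00332), -0.66 (adjusted p = 0.00811) with the covariate, and an adjusted p of 0.0706 in the 10 libraries alone. *Scarb2* (-0.32, adjusted p = 0.0472) did not pass with the covariate (-0.22, adjusted p = 0.218) or without 0020, 0021, 0023, 0001, 0002 or 0003. The summed level of the list did not follow these counts, at 61305 to 65597 CPM in *APP/PS1* and 62293 to 71916 CPM in WT.

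Phagocytic and scavenger receptors were divided, 8 rising and 5 falling of 23, and 8 and 4 with the covariate. *Clec7a*, *Axl* and *Itgax* rose, as did *Scarb1*, the high-density lipoprotein receptor (1.26, SE 0.15, adjusted p = 4.85e-06). *Cd36*, *Mrc1*, *Cd93* and *Stab1* fell, by 1.76, 1.68, 1.52 and 1.42, and *Mrc1* and *Stab1* are also markers of border macrophages, given with that list below. Members named beyond the 3 smallest p-values of a list, such as these, were chosen after their values were seen.

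Cholesterol synthesis genes rose, 12 of 20 with 0 falling and a median log2 fold change of 1.02, and 11 with the run as a covariate (0.85), 8 in the 10 libraries alone and 2 within libraries 18 to 23. Their summed level was 489 to 697 CPM in *APP/PS1* and 283 to 387 CPM in WT, without overlap. *Cyp51*, the lanosterol demethylase, rose by 1.70 (SE 0.19, adjusted p = 1.65e-06), *Dhcr7*, of the last step, by 0.96 (SE 0.13, adjusted p = 2.43e-05), and *Msmo1*, a sterol oxidase, by 1.35 (SE 0.19, adjusted p = 2.48e-05). In sterol sensing and efflux, *Soat1*, which esterifies cholesterol, rose by 1.46 (SE 0.13, adjusted p = 1.24e-07) and *Insig1*, a sensor that holds back synthesis, by 1.61 (SE 0.24, adjusted p = 6.56e-05), and 6 of 18 genes rose in all (median 0.06) and 0 fell, or 2 without 0004 or 0022. Of 25 genes of lipid droplets and fatty acids, 7 rose and 4 fell (7 without 0004 or 0022), and 6 and 3 with the covariate. The fatty acid binding protein gene *Fabp5* was at 75.9, 385, 321, 414 and 253 CPM in *APP/PS1* and 3.57, 1.70, 2.15, 5.63 and 8.11 CPM in WT, a log2 fold change of 6.10 (SE 0.63, adjusted p = 5.47e-07), and 0004 was the lowest *APP/PS1* library. *Fabp3* rose by 6.17 (SE 0.65, adjusted p = 6.33e-07) and *Plin2*, which coats lipid droplets, by 1.58 (SE 0.16, adjusted p = 2.98e-07).

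Iron genes moved in both directions. Of 14 import genes 3 rose and 3 fell (5 without 0022), and of 17 genes of storage, export and sensing 5 rose and 5 fell (3 without 0001, 0002 or 0003). With the run as a covariate 2 and 2 import genes passed, and 4 and 2 of the others, beside 9.77% higher and 6.41% lower of all genes in the main fit and 5.98% and 3.48% with the covariate. *Slc11a1* (chr1:74414303-74425448), the phagosomal metal transporter NRAMP1 and the paralogue of the targeted gene, was at 643, 741, 736, 707 and 824 CPM in *APP/PS1* and 357, 307, 303, 391 and 351 CPM in WT, with a log2 fold change of 1.09 (SE 0.11, adjusted p = 2.79e-07). *Ftl1*, the ferritin light chain, was at 1767, 1904, 1868, 2123 and 1927 CPM and 919, 913, 839.6, 863 and 907 CPM (log2 fold change 1.11, SE 0.11, adjusted p = 2.59e-07), and it has processed copies that can share reads. *Fth1*, the heavy chain, was at 3007, 3880.1, 3229, 3749 and 3433 CPM and 1601, 1616, 1731, 2301 and 3166 CPM, and WT 0022 lay within the *APP/PS1* range. *Slc40a1* (chr1:45947211-45965683), ferroportin, the iron exporter, had the smallest p-value of all lower genes, at 138, 141, 133, 134 and 148 CPM and 289, 262, 234, 275 and 320.3 CPM (log2 fold change -0.99, SE 0.11, adjusted p = 1.17e-06). The ferritin and ferroportin changes also passed with the run as a covariate. *Pcbp2*, an iron chaperone, rose by 0.52 (SE 0.11, adjusted p = 0.00206), and *Cd163*, the haemoglobin scavenger receptor of border macrophages, fell by 1.76 (adjusted p = 0.00247).

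Glutathione and ferroptosis genes gave 10 higher and 5 lower of 30, with a median of -0.01, and 6 and 4 with the covariate. The higher count was 6 without 0021, 0023, 0001, 0002 or 0003. The peroxiredoxin genes *Prdx6* and *Prdx1* rose by 1.02 (SE 0.18, adjusted p = 0.000518) and 1.12 (SE 0.21, adjusted p = 0.000856), and *Gpx3* fell by 1.11 (adjusted p = 0.00138). Of the 7 subunits of the phagocyte NADPH oxidase, the membrane pair rose and 1 cytosolic subunit fell. *Cyba*, the p22 subunit, was at 923, 1372, 2022, 2318 and 1787 CPM in *APP/PS1* and 571, 487, 469, 796 and 984 CPM in WT (log2 fold change 1.35, SE 0.21, adjusted p = 0.000139), with WT 0022 above *APP/PS1* 0004. *Cybb*, the catalytic gp91 subunit, changed by 1.05 (SE 0.35, adjusted p = 0.0434), and *Ncf1*, the organiser p47, by -0.53 (SE 0.15, adjusted p = 0.0152). The count of 2 higher genes was 1 without 0018, 0020, 0021, 0023, 0001, 0002 or 0022, and that of 1 lower gene 0 without 0020, 0002 or 0003. With the run as a covariate *Cyba* passed (1.00, adjusted p = 8.25e-05), and *Cybb* and *Ncf1* did not (0.90, adjusted p = 0.157, and -0.29, adjusted p = 0.0727). *Ncf4* (0.01, adjusted p = 0.991), *Rac1* (0.21, adjusted p = 0.229) and *Rac2* (-0.29, adjusted p = 0.112) did not pass.

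Glycolysis and hypoxia genes rose, 15 of 28 with 0 falling (1 without 0004, 0019 or 0022) and a median log2 fold change of 0.72. The count was 15 with the run as a covariate and 10 within libraries 18 to 23. Their summed level was 7558 to 9601 CPM in *APP/PS1* and 3687 to 4492 CPM in WT. *Egln3*, a hydroxylase that marks HIF for degradation, was at 60.6, 74.1, 73.4, 66.6 and 86.2 CPM in *APP/PS1* and 2.00, 3.13, 6.40, 3.73 and 1.66 CPM in WT, a log2 fold change of 4.42 (SE 0.37, adjusted p = 2.60e-08), and *Tpi1*, triosephosphate isomerase, rose by 1.55 (SE 0.16, adjusted p = 4.23e-07).

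Respiratory chain and ribosomal protein genes passed in numbers that depended on the fit. Of 74 nuclear genes measured for oxidative phosphorylation 65 rose and 0 fell (median 0.85), and of 77 cytosolic ribosomal protein genes 52 rose and 0 fell (median 0.78). With the run as a covariate 36 and 14 rose (medians 0.51 and 0.46), in the 10 libraries alone 12 and 6 (medians 0.86 and 0.79), and within libraries 18 to 23 0 and 0 did, with medians of 0.52 and 0.42. Single libraries moved both counts. Of the oxidative phosphorylation genes 34 without 0021 and 40 without 0002 or 0003 rose, and of the ribosomal protein genes 33 without 0020, 14 without 0021, 23 without 0001, 17 without 0002 and 18 without 0003. Of these lists 2 and 3 genes, in that order, had no overlap between groups, beside 4.18% of all genes. Summed over the oxidative phosphorylation list, *APP/PS1* libraries held 9795, 13065, 16730.4, 21942 and 16737 CPM and WT libraries 7851, 6776, 6089, 10258 and 14025 CPM. Library 0021 was the highest *APP/PS1* library and 0004 the lowest, and 0022 the highest WT library. A measure of transcript length moved with these sums. For this measure both lists, the mitochondrial genome and genes without an annotated length were left out of the total. Of the remaining counts, genes with under 1500 bases of annotated exon took 2.48, 3.17, 3.70, 4.61 and 3.94% in *APP/PS1* and 2.06, 1.81, 1.68, 2.52 and 3.15% in WT. The share of all counts that came from the mitochondrial genome, which encodes further respiratory chain subunits, was 0.996, 1.42, 1.03, 1.66 and 1.80% in *APP/PS1* and 2.05, 1.95, 1.56, 2.06 and 2.73% in WT, with overlapping ranges. The part of transcript length in the result was not tested. *Ndufv3*, a complex I subunit, changed by 1.20 (SE 0.21, adjusted p = 0.000377), *Cox7a2*, of complex IV, by 1.36 (SE 0.25, adjusted p = 0.000700), and *Ndufa13* by 1.02 (SE 0.20, adjusted p = 0.00114). *Rps2*, *Rpsa* and *Rpl41* changed by 1.03 (SE 0.18, adjusted p = 0.000436), 0.98 (SE 0.17, adjusted p = 0.000475) and 1.17 (SE 0.23, adjusted p = 0.00110), and ribosomal protein genes have many pseudogenes with which reads can be shared. These 6 genes also passed with the covariate.

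Inflammatory genes showed increases in part of each list. Of 19 cytokine and inflammasome genes 7 rose and 0 fell, 3 with the covariate and 2 without 0021 and 4 without 0023. *Osm*, oncostatin M, rose by 1.40 (SE 0.20, adjusted p = 3.22e-05) and *Il6* by 1.57 (SE 0.41, adjusted p = 0.0101), which had an adjusted p of 0.0564 with the covariate. *Il1b* (2.34, adjusted p = 0.0306) and *Tnf* (1.05, adjusted p = 0.0483) passed in the main fit and not with the covariate (2.23, adjusted p = 0.116, and 1.03, adjusted p = 0.110). *Il6* also lost its call without 0021, *Il1b* without 0021, 0023, 0002, 0003 or 0019, and *Tnf* without 0020, 0021, 0023, 0002, 0003 or 0019. Of 20 chemokine genes 7 rose, among them the receptor *Cxcr4* (2.58, SE 0.36, adjusted p = 2.88e-05) and the ligand *Cxcl16* (1.45, SE 0.21, adjusted p = 3.57e-05), and *Cx3cr1* alone fell (2 without 0021), with 6 and 2 with the covariate. Interferon response genes rose in 10 of 26 and fell in 0 (median 0.78), 8 with the covariate and 6 without 0002 or 0003. *Oas1a* rose by 2.23 (SE 0.32, adjusted p = 3.22e-05), *Ifi27l2a* by 2.16 (SE 0.41, adjusted p = 0.000831) and *Oasl2* by 1.53 (SE 0.34, adjusted p = 0.00343). MHC class I presentation gave 9 of 16 higher and 0 lower, 8 with the covariate, 5 in the 10 libraries alone and 0 within libraries 18 to 23, with *H2-K1* at 1003, 875, 964, 1053 and 974 CPM in *APP/PS1* and 387, 366, 384, 629 and 544 CPM in WT (log2 fold change 1.08, SE 0.16, adjusted p = 7.78e-05), *H2-M3* at 1.29 (SE 0.20, adjusted p = 8.43e-05) and *H2-T23* at 0.95 (SE 0.15, adjusted p = 0.000141). Class I genes resemble each other, so their reads may be split unevenly. Class II presentation gave 2 higher (*H2-Ob* and *H2-DMb1*) and 2 lower (*Ctss* and *H2-Oa*) of 11, with 1 without 0020, 0021, 0023, 0001, 0002 or 0003 for the higher and 1 without 0021 for the lower, and 1 and 2 with the covariate. The median of these 11 genes was -0.42, and -0.66 with the covariate. Their summed level was 2893 to 5656 CPM in *APP/PS1* and 6194 to 7827 CPM in WT, without overlap.

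Complement genes gave 2 higher and 4 lower of 18, with 1 without 0020, 0021 or 0001 and 2 without 0023, 0002 or 0003 for the lower, and 2 and 1 with the covariate. The receptor for C3a, *C3ar1*, rose by 0.95 (SE 0.12, adjusted p = 4.92e-06) and *C5ar2* fell by 0.96 (adjusted p = 0.00164). Inhibitory and SLAM family receptors gave 8 higher and 2 lower of 20 (5 without 0004 for the lower), and 7 and 2 with the run as a covariate. *Pdcd1*, which encodes PD-1, was at 58.6, 61.9, 44.9, 45.9 and 58.6 CPM in *APP/PS1* and 7.45, 3.54, 1.76, 11.7 and 5.87 CPM in WT, a log2 fold change of 3.15 (SE 0.43, adjusted p = 2.03e-05). Its ligand *Cd274* was at 32.3, 34.5, 32.6, 42.1 and 37.8 CPM and 14.8, 10.5, 10.7, 10.1 and 13.2 CPM, a log2 fold change of 1.60 (SE 0.18, adjusted p = 1.34e-06), and *Slamf9* rose by 1.23 (SE 0.17, adjusted p = 1.97e-05). Neither PD-1 nor its ligand overlapped between the groups. Cell cycle genes gave 5 higher and 2 lower of 30 (all genes, 9.77% and 6.41%), with *Cdk1* at 1.53 (SE 0.32, adjusted p = 0.00231) and *Tyms* at 1.21 (SE 0.26, adjusted p = 0.00231), and 2 higher with the covariate. The higher count was 3 without 0020, 0021, 0023, 0002 or 0003, and the lower count 1 without 0021 or 0023 and 0 without 0001 or 0002.

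**Figure D4:**
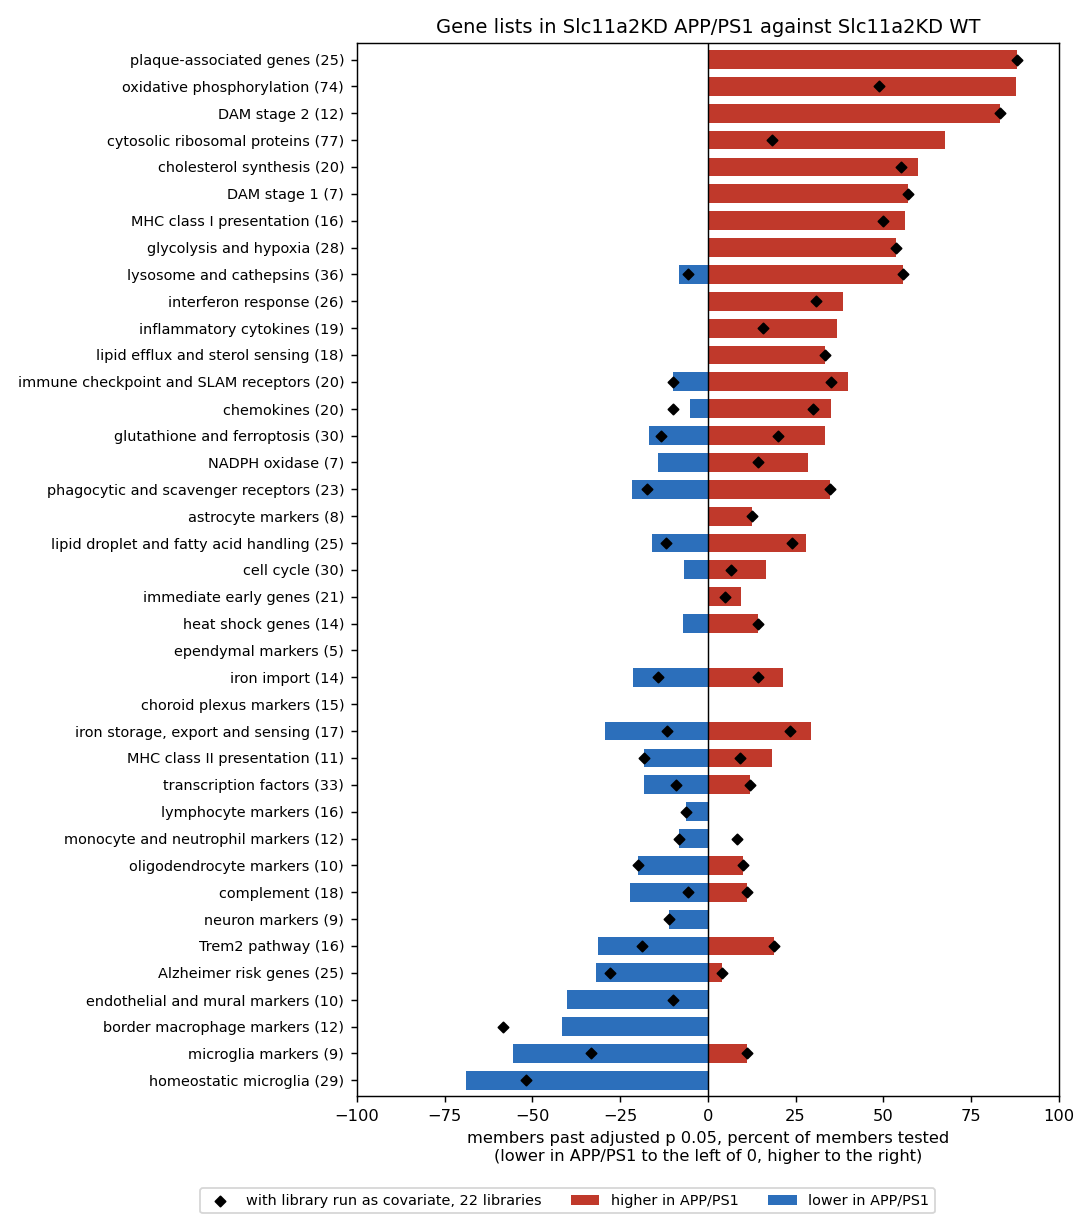
Share of each gene list that was higher (right) or lower (left) in *Slc11a2*KD *APP/PS1* than in *Slc11a2*KD WT at an adjusted p under 0.05 (bars, number of members tested in brackets), with diamonds for the same share with the library run as a covariate in the same 22 libraries. With the covariate 22 plaque-associated and 10 DAM stage 2 genes are higher, as many as without it, and 36 in place of 65 oxidative phosphorylation and 14 in place of 52 ribosomal protein genes.

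For other lists too, fewer members passed within libraries 18 to 23 than in the main fit, in a comparison with 2 WT libraries where 1.68% and 0.41% of all genes passed. Phagocytic and scavenger receptors gave 5 higher and 0 lower, chemokines 4 higher and 0 lower, inhibitory and SLAM family receptors 6 higher and 0 lower and lipid droplet genes 4 higher and 0 lower. Interferon response genes gave 2 higher and 0 lower, cytokine and inflammasome genes 2 higher and 0 lower, sterol sensing and efflux genes 4 higher and 0 lower and transcription factors 2 higher and 1 lower. Iron import genes gave 1 higher and 1 lower, iron storage, export and sensing genes 1 higher and 1 lower and Alzheimer's disease risk genes 0 higher and 1 lower. Glutathione, NADPH oxidase, class II and cell cycle genes gave 0 higher and 0 lower.

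Markers of handling and of other cells were read in the same fit. Of 21 immediate early genes 2 rose (*Ier3* and *Ier2*) and 0 fell, with 1 without 0021, 0023, 0002, 0003 or 0019 for the higher and 1 without 0004, 0019 or 0022 for the lower, where 9.77% of all genes rose, and 1 passed with the covariate. The median of this list changed sign, from -0.20 to 0.18 with the covariate, and that of 14 heat shock genes from -0.56 to 0.05. *Hspa8* and *Hspe1* rose by 0.63 (SE 0.12, adjusted p = 0.000982) and 1.41 (SE 0.28, adjusted p = 0.00153), and *Bag3* changed by -1.14 (SE 0.32, adjusted p = 0.0186), and -0.68 (adjusted p = 0.211) with the covariate. *Bag3* was the 1 heat shock gene that fell, with 2 without 0004 or 0019, 0 without 0021, 0023 or 0001 and 3 without 0022. Choroid plexus epithelial genes gave 0 higher and 0 lower of 15. Their summed level was 2.30, 290.5, 356, 90.2 and 507 CPM in *APP/PS1* and 53.0, 10.6, 11.2, 833 and 458 CPM in WT. Every library of the second run lay above every library of the first, with 0021 (90.2 CPM) the nearest to 0001 (53.0 CPM). Border macrophage markers fell in 5 of 12, and in 7 with the covariate, at a summed 281 to 481 CPM in *APP/PS1* and 561 to 1143 CPM in WT, without overlap. *Mrc1*, the mannose receptor, was at 57.2, 32.2, 36.9, 16.7 and 31.9 CPM in *APP/PS1* and 96.8, 115, 161, 136 and 52.6 CPM in WT (log2 fold change -1.68, SE 0.31, adjusted p = 0.000690), and *F13a1* fell by 1.36 (adjusted p = 0.00120). The genes *Cd163*, *Stab1* and *Mrc1*, which fell in the lists above, are on this list, and the part of cell composition in those changes was not tested.

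Endothelial and mural markers fell in 4 of 10 (1 with the covariate, 2 without 0020, 0021, 0023, 0002 or 0003), at a summed 94.9 to 185 CPM in *APP/PS1* and 158 to 335 CPM in WT, with *Pecam1* down by 1.70 (adjusted p = 7.30e-05). Oligodendrocyte markers gave 1 higher and 2 lower of 10, with 1 without 0020, 0003 or 0019 for the lower. *Cspg4*, the NG2 proteoglycan, was at 7.87, 30.5, 16.7, 10.3 and 9.19 CPM in *APP/PS1* and 1.000, 2.37, 2.26, 0.829 and 0.666 CPM in WT (log2 fold change 3.39, SE 0.66, adjusted p = 0.00110), while the myelin genes *Mobp* and *Mbp* changed by -1.75 (SE 0.44, adjusted p = 0.00848) and -1.34 (SE 0.42, adjusted p = 0.0338), and *Mbp* lost its call without 0004, 0020, 0021, 0003, 0019 or 0022. Of 8 astrocyte markers *Gfap* alone rose, at 109.6, 33.6, 31.6, 39.6 and 37.6 CPM and 2.17, 2.65, 3.88, 4.80 and 9.27 CPM (log2 fold change 3.47, SE 0.42, adjusted p = 4.85e-06), and the other 7 did not pass. Neuron markers gave 1 lower of 9 (*Camk2a*, -1.23, SE 0.23, adjusted p = 0.000901), lymphocyte markers 1 lower of 16 (*Cd4*, -2.06, SE 0.46, adjusted p = 0.00388), and monocyte and neutrophil markers 1 lower of 12 (*Ngp*, -1.78, SE 0.59, adjusted p = 0.0411, with 0 without 0018, 0020, 0021, 0003 or 0019). Without 0019 the change of *Ngp* was -1.03 (adjusted p = 0.187). No marker of 5 ependymal genes passed, at an adjusted p of 0.329 or more.

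The same genotype comparison in Control mice called 1124 higher (5.99%) and 841 lower (4.48%) genes. The comparisons share no library and no run of library numbers, and the Control mice received corn oil in place of tamoxifen. Of 3034 genes called in the knockdown, 1228 were also called in Control (40.5% of the knockdown calls and 62.5% of the Control calls), and 1227 of these had the same direction. Over 11888 genes at 1 CPM or more, the log2 fold changes of the comparisons had a Pearson r of 0.670 across genes, which are not independent replicates. The difference between the comparisons was tested as the interaction of knockdown and genotype, where knockdown also stands for tamoxifen and library number. It was past the threshold for 0 genes (edgeR), with a smallest adjusted p of 0.544, and 1703 genes (9.08%) had an unadjusted p under 0.05. That number was 834 with the covariate, 3887 without 0004 and 3515 without WT 0022, 3376 by limma voom and 1080 with Control *APP/PS1* 0010 kept. DESeq2 called 18 and 7 genes and limma voom 0 and 1. On simulated data the edgeR interaction test recovered 54% of genes shifted by 1.5 on the log2 scale.

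*Apoe* had 1 of the smaller interaction p-values among listed genes. Its log2 fold change was 0.02 in the knockdown and 1.31 (SE 0.28, adjusted p = 0.00248) in Control, a difference of -1.30 (SE 0.41, unadjusted p = 0.00405, adjusted p = 0.544). This difference and those that follow come from the fit without the covariate. With the covariate the knockdown change of *Apoe* was 0.30 (adjusted p = 0.637), nearer to that of Control. *Ctsl* differed the other way, with 1.36 in the knockdown and 0.81 (SE 0.13, adjusted p = 0.000145) in Control, a difference of 0.55 (SE 0.19, unadjusted p = 0.00966, adjusted p = 0.544). *Ccr6*, a chemokine receptor of lymphocytes, was at 0.417, 0.474, 0.899, 18.7 and 0.257 CPM in knockdown *APP/PS1* and 60.8, 64.1, 0.708, 43.8 and 34.0 CPM in knockdown WT, where 1 library of each group ran against the rest, and its difference between the comparisons was -7.26 (SE 1.73, unadjusted p = 0.000332, adjusted p = 0.544). Other listed genes with an unadjusted p under 0.01 were *Acsl1*, *Bag3* and *Hsph1*, with differences of -0.79, -1.28 and -1.22, and *Ccl7* and *Pf4*, with 2.07 and 1.27. The knockdown change of *Bag3*, given above, was smaller with the covariate. The 3 smallest p-values of all genes belonged to *4933407K13Rik*, *Eif3j1* and *Ric3*, at unadjusted p = 3.27e-05, 0.000136 and 0.000313, and the differences of *Eif3j1* and *Ric3* were -0.70 and -1.21. All of these had an adjusted p of 0.544 by edgeR. Of 15 choroid plexus markers 14 had an unadjusted interaction p under 0.05, and 13 of the 15 were lower in Control *APP/PS1* than in Control WT. These markers belong to 1 tissue and are not independent observations. The paper names choroid plexus contamination of the hippocampal samples as a possibility for *Enpp2* and *Ttr*. For the oxidative phosphorylation list, 3 of 74 genes rose in Control (median 0.36) and 9 of 74 had an unadjusted interaction p under 0.05, beside 5.99% of all genes higher in Control and 9.08% with such an interaction p.

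**Figure D5:**
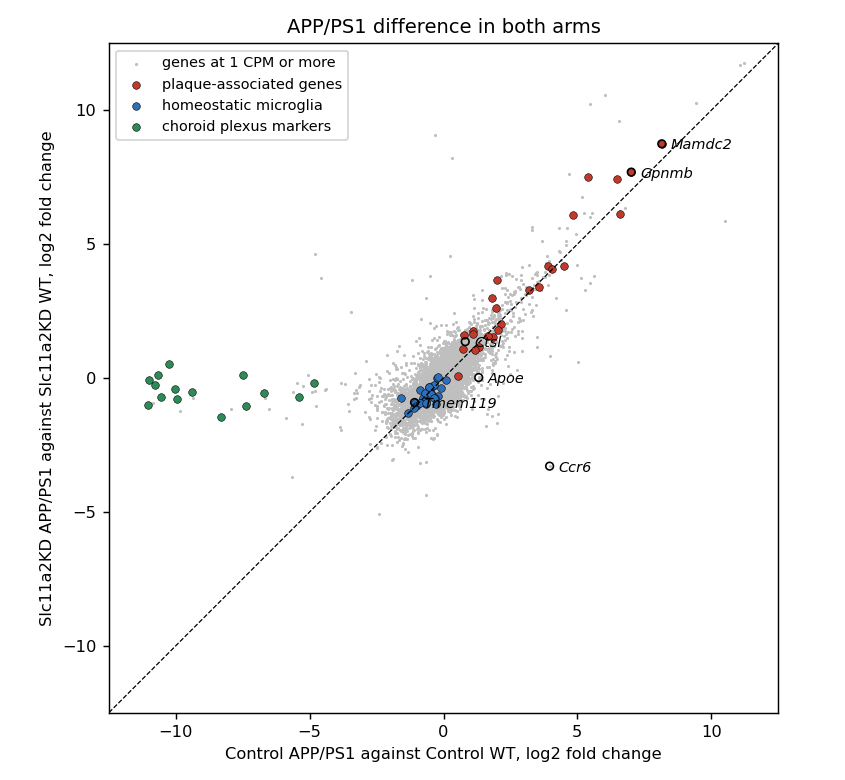
Log2 fold change of *APP/PS1* against WT in Control (horizontal axis) and in *Slc11a2*KD libraries (vertical axis) for genes at 1 CPM or more, with 3 gene lists in colour and the dashed line marking equal values. Plaque-associated and homeostatic genes lie near the line, choroid plexus markers lie far to the left of it, and *Apoe*, *Ctsl* and *Ccr6* are circled with *Mamdc2*, *Gpnmb* and *Tmem119*.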

How the data were processed

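RNA of CD11b+ hippocampal cells was sequenced as poly(A)-selected, paired-end libraries on an Illumina NovaSeq. The authors trimmed the reads with Trim Galore 0.6.7 and Cutadapt, aligned them to mm39 with STAR and deposited the counts that STAR gave per gene, whole and not normalized, in 18876 rows of which none totalled under 16 counts. The authors also deposited a signal table, their counts divided by DESeq2 size factors, which was not used here. No row was a total or an unassigned class, and 80 rows carried only a gene identifier.

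Testing kept genes that reached 5 counts in 3 or more of 22 libraries (Control *APP/PS1* 0010 was left out). The study's methods removed 1 Control *APP/PS1* sample as an outlier, and their text does not give its number. Libraries were normalised by TMM, and the test was the quasi-likelihood test of edgeR 4.0.16 in R 4.3.3 with the 4 groups in 1 fit, no covariate and Benjamini-Hochberg adjustment over all genes tested. CPM used the same scaling, and the SE of a log2 fold change was its size over the square root of F. Principal components used the variance-stabilizing transformation of DESeq2 1.42.0. Alternatives were DESeq2, edgeR with size factors from DESeq2, voom of limma 3.58.1 with quality weights, other filters, calls restricted to an absolute log2 fold change over 1, the 10 knockdown libraries alone, the run as a covariate in 22 or 10 libraries, libraries 18 to 23 alone, 0010 kept, and each of the 10 libraries left out. Tests were two-sided. The tests across genes were checked on simulated data.

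The 40 gene lists held 850 entries, of which 820 were tested, and the others had no row in the table. The comparison and the lists were chosen with earlier results of these data known. Named genes were taken from the 8 largest non-overlapping changes each way that also passed in the 10 libraries with the run as a covariate (mean of 1 CPM or more, no predicted gene), the 5 smallest p-values each way, the 3 smallest in each list, all DAM, NADPH oxidase and transgene genes (a few of these are not reported here), and listed genes with an unadjusted interaction p under 0.01. Positions came from GENCODE M39 on GRCm39, and upstream sequence from RefSeq on GRCm38.p6. With 33418857 or more counts a library, 1 CPM stands for over 30 counts.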

Additional observations from a re-analysis of the deposited data

Results flagged for a closer look

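Single libraries that lay apart from the other 4 of their group by Dixon's criterion (a gap to the nearest library that takes most of the group's range, on log2 CPM with a prior count of 2) are given here, 14 of 314 groups of values tested, where chance alone marks about 1 in 20. Library 0004, the single *APP/PS1* library of the first run, accounted for 6 of them. Its log2 CPM was low for *Asb11* (0.47, nearest 2.01), *Fabp5* (6.25, nearest 7.99), *Igf1* (6.73, nearest 7.80) and *Mamdc2* (6.47, nearest 7.35), and high for *Cd163* (4.75, nearest 3.84) and *Gfap* (6.78, nearest 5.31). *APP/PS1* 0021 was high for *Ccr6* (4.23, nearest -0.08) and low for *P2ry12* (11.02, nearest 11.41). Among WT libraries, 0001 was low for *Bhlhe40* (1.35, nearest 2.33) and *Prnp* (1.44, nearest 2.86), 0003 was low for *Ccr6* (-0.40, nearest 5.09) and *Ecscr* (6.59, nearest 6.87), 0022 was low for *Itgax* (3.69, nearest 4.03), and 0019 was high for *Trpm1* (-2.78, nearest -4.39), the only WT library with counts of that gene. All 6 values of 0004 stayed on the *APP/PS1* side of every WT library except that of *Cd163*.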

How the results depend on the processing

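Counts of genes moved more than directions did. Beside 1832 and 1202 genes higher and lower, the 10 knockdown libraries alone gave 738 and 303, the same with the run as a covariate 776 and 344, the 22 libraries with the run 1121 and 652, libraries 18 to 23 alone 263 and 64 and calls restricted to an absolute log2 fold change over 1 733 and 372. The lower count was 1947 by limma voom. Fits of fewer libraries or genes have fewer degrees of freedom or tests, and the cause was otherwise not tested. With each library left out in turn the higher count ran from 1248 to 2475 and the lower count from 728 to 2352, and the count of interaction genes from 0 to 1 (without 0002), against 0 by edgeR with all libraries, 25 by DESeq2 and 1 by limma voom. The PC1 difference kept its direction and passed in the 12 settings tried. For 181 named genes, 3232 of 3573 alternative fold changes kept direction and call, 237 lost the call, 28 gained it and 76 changed sign without a call in either. Scaling by DESeq2 size factors moved the median of all genes from -0.07 to -0.05. List counts under other settings were chosen after seeing the data. No paired analysis was possible because the groups share no replicate numbers.

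The design has 1 *APP/PS1* library in the first run and 2 WT libraries in the second, so that 0004 and the pair of 0019 and 0022 carry the separation of run and genotype. Counting strand, transcript isoforms and the intact *Slc11a2* message were not resolved by gene totals.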
